A study of Mus musculus with 27 samples.

Results

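The interferon-inducible GTPases described here are 10 genes, Gbp2, Gbp3, Gbp4, Gbp5, Gbp7 and Gbp10 of the guanylate-binding protein (GBP) family and Irgm1, Irgm2, Igtp and Iigp1 of the immunity-related GTPase (IRG) family. They were taken by symbol from the deposited table of normalised read counts, and all 10 were found among its 9996 genes. RNA came from macrophages and neutrophils sorted by flow cytometry out of mammary tumours of K14cre;Cdh1F/F;Trp53F/F mice, whose keratin-14-positive epithelium lacks E-cadherin and p53. There were 4 treatments: control antibody alone, anti-CSF-1R alone, cisplatin plus control antibody, and cisplatin plus anti-CSF-1R, here the combination. Anti-CSF-1R blocks a receptor through which macrophages receive survival signals, and cisplatin crosslinks DNA. In that order macrophages had 4, 2, 4 and 2 libraries, and neutrophils 4, 4, 3 and 4. All groups carried the same alleles, and the ages of the mice were not given in the sources used here. Mice given cisplatin were taken 1 day after the second of 2 injections, and those without it when the tumour reached 100 mm2. Any comparison across cisplatin therefore also compares those endpoints, and drug and endpoint cannot be told apart.

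GBPs and IRGs are large and mid-sized GTPases that cells make in quantity after exposure to interferon, above all interferon gamma. GBPs coat vacuoles and the bacteria or parasites within them and help to open these membranes, which exposes their contents to cytosolic sensors. The IRG effector Iigp1 loads onto the vacuole membrane as well, while the IRG regulators Irgm1, Irgm2 and Igtp sit on the cell's own membranes and hold the effectors inactive there. Their promoters are known for a pair of interferon-responsive motifs, the GAS element and the interferon-stimulated response element (ISRE), and interferon regulatory factors act on the ISRE.

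Of the 10 genes, 9 lie on chromosomes 3, 5 and 11 of GRCm38, the assembly of build mm10, with positions from GENCODE vM21. Gbp5 (chr3:142493978-142522344), Gbp7 (chr3:142530342-142550149), Gbp3 (chr3:142560026-142573209) and Gbp2 (chr3:142620602-142638008) stand in a row on the plus strand of chromosome 3. Gbp4 (chr5:105115767-105139586) and Gbp10 (chr5:105215699-105239533) lie on the minus strand of chromosome 5. Irgm1 (chr11:48861968-48871683, minus strand), Igtp (chr11:58199556-58207591, plus strand) and Irgm2 (chr11:58199618-58222782, plus strand) are on chromosome 11. The annotated Igtp and Irgm2 genes overlap on the same strand, so their values are uncertain where reads fall in the overlap. Of the 50-base words in the exons of Gbp10 84.1% also occur in another gene and 73.3% occur in Gbp6, so Gbp10 values are uncertain. The share was 12.7% for Gbp7, 11.8% for Igtp and at most 7.77% for each of the other 7.

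RefSeq promoter windows (GRCm38.p6) were at hand for 7 of the 10 genes, all but Gbp4, Gbp10 and Iigp1. The 6 genes with an ISRE match within 150 bases of the start are shown. Each line gives the 150 bases before the RefSeq start, 5′ to 3′ on the gene's strand, with matches to the ISRE (GAAA, any 2 bases, GAAA) or to the GAS letters TTCNNNGAA on either strand in capitals. The windows are chr3:142620513-142620662 for Gbp2, chr3:142559894-142560043 for Gbp3 and chr3:142530186-142530335 for Gbp7. They are chr11:48871421-48871570 for Irgm1 (minus strand), chr11:58199406-58199555 for Igtp and chr11:58214827-58214976 for Irgm2.
Gbp2: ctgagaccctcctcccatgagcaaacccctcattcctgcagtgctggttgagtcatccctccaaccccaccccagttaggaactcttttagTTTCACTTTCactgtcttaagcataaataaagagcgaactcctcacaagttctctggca
Gbp3: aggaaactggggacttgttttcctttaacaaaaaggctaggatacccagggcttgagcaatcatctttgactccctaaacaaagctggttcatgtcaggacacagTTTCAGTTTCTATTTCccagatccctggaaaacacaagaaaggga
Gbp7: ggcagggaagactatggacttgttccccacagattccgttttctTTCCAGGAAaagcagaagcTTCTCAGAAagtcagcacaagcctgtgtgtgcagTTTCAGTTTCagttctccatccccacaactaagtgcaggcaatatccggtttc
Irgm1: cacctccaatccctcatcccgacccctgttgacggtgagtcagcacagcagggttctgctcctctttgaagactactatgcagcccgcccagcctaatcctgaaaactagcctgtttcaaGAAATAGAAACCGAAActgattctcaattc
Igtp: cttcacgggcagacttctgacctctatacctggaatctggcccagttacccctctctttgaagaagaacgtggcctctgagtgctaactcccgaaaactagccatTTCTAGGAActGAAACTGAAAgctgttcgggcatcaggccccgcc
Irgm2: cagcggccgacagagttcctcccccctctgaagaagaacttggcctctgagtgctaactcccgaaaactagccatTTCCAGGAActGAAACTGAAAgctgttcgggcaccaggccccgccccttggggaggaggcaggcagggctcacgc

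In the 250 bases before the start, each of the 7 genes had an ISRE match in at least 1 window, against 2.977% of all 32851 windows of the same length. Gbp2, Gbp3 and Gbp7 carry it on the minus strand, 59, 45 and 53 bases before the start, and Irgm1, Igtp and Irgm2 on the plus strand, 30, 34 and 64 bases before it. Gbp3 and Irgm1 each have 2 matches that overlap, which appear as 1 longer run of capitals. The second Gbp3 window had no match. A GAS match stood in the windows of Gbp5, Gbp7, Igtp and Irgm2, against 7.02% of all windows, and 0.3318% of all windows held both kinds. In Igtp and Irgm2 the GAS and ISRE stand 2 letters apart, with the GAS letters TTCTAGGAA in Igtp and TTCCAGGAA in Irgm2. The 250-base windows of these 2 genes also share an identical run of 55 bases, which lies farther from the start than either motif. In Gbp5 the ISRE lies 165 bases before the start and the GAS 52 and 245 bases before it. These matches are a description of the letters and were not tested as binding sites.

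The values are the authors' read counts divided by a size factor per library, with a count of 0 listed at 1. In these libraries many values under 1000 had lost their decimal point, so a printed number can stand for up to 3 values that differ in the place of the point. The point was restored from the whole-read step of each library and from a model of each gene's counts, and a value was kept only where the model with and the model without the treatment groups put it in the same place. Of the 270 member values, 130 had 1 possible place, 68 were placed by the model and 72 stayed undecided and were left out. Reads per library, and the marker sums here and below, use the most probable place of every value. They therefore include undecided values, whose place may be wrong. The reads came to 1297153 to 7497934 per macrophage library and 998463 to 3283267 per neutrophil library. The macrophage marker sum (14 genes) was 19873 to 46739 in macrophages and 12271 to 46760 in neutrophils, so it did not separate the populations, while the sum of the 11 measured neutrophil markers was 196 to 1567 in macrophages and 22092 to 101738 in neutrophils. Anti-CSF-1R replicate 2 of the macrophages stood apart with a mast cell and basophil marker sum of 9267 against 13.3 in replicate 1 and at most 71.5 in the other macrophage libraries. In bulk RNA, a lower share of cells with a transcript and less transcript per cell cannot be told apart.

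In the combination, Gbp2 and Igtp had the highest levels per kilobase of exon among the members. In combination neutrophils Gbp2 stood at 856 mean normalised counts per kilobase of exon, followed by Igtp at 421, Gbp7 at 217, Irgm2 at 189 and Irgm1 at 99.2. Gbp3 (80.2), Gbp5 (62.4), Gbp4 (36.5), Gbp10 (19.3) and Iigp1 (9.12) followed on that per-kilobase scale. In combination macrophages the order on the same scale was Gbp2 (121), Igtp (111), Gbp7 (65.9), Gbp10 (52.9), Irgm1 (42.4), Irgm2 (41.0), Gbp3 (40.3), Iigp1 (36.0), Gbp4 (13.75) and Gbp5 (7.47). Gbp10 and Iigp1 thus stood higher in the order of macrophages than in that of neutrophils. In control and cisplatin macrophages Gbp7 stood highest instead, at 47.6 and 40.3 on that scale. These orders were not tested.

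Among the GBPs, Gbp2, which is recruited to parasite vacuoles, is the member in neutrophils whose values are known best. In neutrophils its normalised counts were 145, 188, 118 and 1032 in the 4 control libraries, and 1553, 3577, 946 and 2545 (SD 1155, n = 4) in the 4 combination libraries. Controls 1 to 3 lie far below every combination library, and control replicate 4 lies above the lowest of them, so the groups overlap. With anti-CSF-1R the restored values were 1459, 465 and 1011, the remaining library being 10.4 or 104, and with cisplatin they were 1033 and 461, the remaining library being 83.4 or 834. The order of the group medians was control (166), cisplatin (747), anti-CSF-1R (1011) and combination (2049). Restored libraries of every pair of neighbours in that order overlapped.

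Gbp7, which has been tied to assembly of the phagocyte oxidase, had the same shape in neutrophils. Its normalised counts were 206, 191, 126 and 783 in control and 1052, 2051, 675 and 1089 in the combination. As for Gbp2, control replicate 4 is the only control above any combination library. Gbp5, which promotes inflammasome assembly, stood at 16.7 and 209 in the 2 restored controls and at 308, 478, 276 and 596 in the combination. The other controls were 2.96 or 29.6 and 28.1 or 281. Restored Gbp5 controls stay below every combination library, whereas the higher of the undecided places would not.

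The remaining GBPs had fewer certain values. Gbp3 stood in neutrophils at 28.1 and 193 in control and at 366, 154 and 266 in the combination. Gbp4 had 1 restored control library at 42.6, while 3 combination libraries stood at 106, 399 and 316. Gbp10 had 1 restored control at 16.7, and the combination stood at 79.0, 54.2 and 90.6. For Gbp4 and Gbp10 the comparison with control rests on that 1 library, control replicate 4, whose spread the fit took from the other groups.

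Of the IRG regulators in neutrophils, Irgm2 stood at 781, 792, 549 and 668 in the combination, at 428, 262 and 255 with cisplatin, and at 429.9, 299 and 375 with anti-CSF-1R. Every combination library lies above every restored library with either drug alone. In control only replicate 1 was restored, at 109.6, and the others were 62.1 or 621, 87.0 or 870 and 62.0 or 620. Irgm1 stood at 513, 821, 266 and 704 in the combination and at 241, 127 and 109.8 with cisplatin, again without overlap. Its only restored control was 272.

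Igtp, also an IRG regulator, stood at 775, 1369, 421 and 837 in combination neutrophils and at 466 and 374 with cisplatin. The lowest combination library lies between those cisplatin libraries. Its restored control was replicate 4 alone, at 548. The IRG effector Iigp1 (chr18:60376027-60392634, plus strand, in GENCODE vM21) was low in neutrophils, at 79.0, 54.2, 1 and 78.2 in the combination, where 1 means that no read was counted, and at 1 and 28.7 in control.

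**Figure D1:**
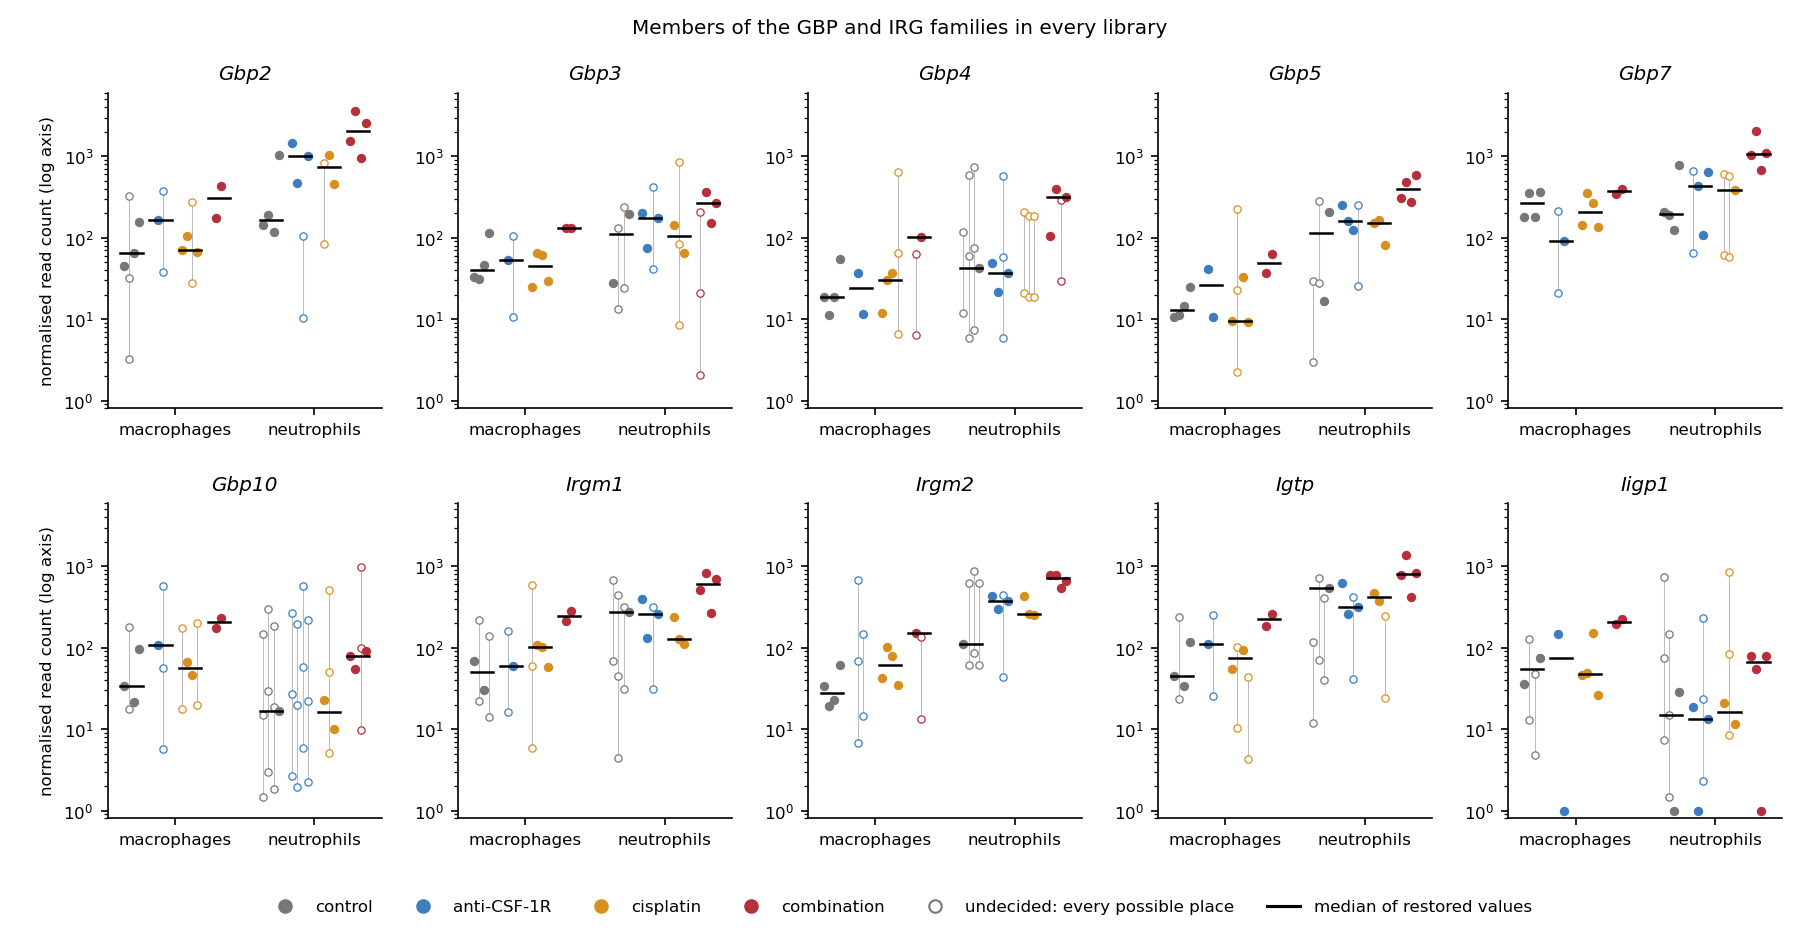
Normalised read count (log axis) of each member in the 27 libraries, grouped by cell type and treatment; filled points are restored values, open points joined by a line are the possible places of an undecided value, and bars are medians of restored values. The combination libraries of Gbp2 in neutrophils sit between 946 and 3577, and control replicate 4 at 1032 stands above the other controls.

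In the combination against control in neutrophils, all 10 members were tested and all 10 estimates were positive. The median log2 fold change was 2.12, beside 0.02 over all genes tested. Of the 10, 1 member, Irgm2, rose past the threshold of the test, limma on log2(value + 1) with Benjamini-Hochberg adjustment over all genes (log2 fold change 2.64 ± 0.37 SE, adjusted p = 0.0435), beside 0.0658% of all genes that rose. The Irgm2 value rests on 1 restored control library, whose spread the fit took from the other groups, and over every possible place of its undecided values the log2 difference ranged from 0.65 to 3.13. Gbp2 (2.99 ± 0.59 SE, adjusted p = 0.0529) and Gbp7 (2.16 ± 0.57 SE, adjusted p = 0.110), for which the place cannot change the difference, did not pass. At an unadjusted p under 0.05 there were 7 of 10 members. For 6 members (Gbp2, Gbp5, Gbp7, Irgm1, Irgm2 and Igtp) the combination mean was higher at every possible place.

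Control replicate 4 weighs on this comparison. Without it 5 members rose by the same test: Gbp2 (3.68), Gbp3 (3.09), Gbp5 (4.49), Gbp7 (2.71) and Irgm2 (2.64, all log2 fold changes). Without control replicate 1, the only restored Irgm2 control, or without combination replicate 1, 2 or 4, the number that passed fell to 0, and without combination replicate 3 Gbp2 and Irgm2 passed. For Igtp the log2 fold change of 0.51 ± 0.56 (SE) was computed against control replicate 4 alone and lies under the range of 1.08 to 3.53 that all possible places allow.

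Against cisplatin alone, 9 members could be tested in neutrophils, all 9 estimates were positive (median log2 fold change 1.47, all genes 0.0058) and 0 passed limma's adjusted threshold, beside 0% of all genes. At an unadjusted p under 0.05 there were 4, Gbp5, Gbp10, Irgm1 and Irgm2, and limma-voom on the most probable reads passed 0. Irgm1 (log2 fold change 1.82 ± 0.42 SE, adjusted p = 0.271) and Irgm2 (1.17 ± 0.25 SE, adjusted p = 0.257) have only values whose place cannot change this difference. Restored libraries did not overlap, with the combination higher, in 5 of the 8 members that had at least 2 restored libraries a group, beside 5.67% of all genes.

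Against anti-CSF-1R alone, 9 members were tested in neutrophils, all 9 estimates were positive (median log2 fold change 1.15, all genes 0.02) and 0 passed limma's adjusted threshold, beside 0% of all genes. At an unadjusted p under 0.05 there were 5, and limma-voom passed 1, Gbp4 (log2 fold change 3.32). Without combination replicate 1, Gbp4 passed in limma as well (3.35). The combination was higher without overlap in 4 of 9 members, beside 4.28% of all genes, and in the comparison with control in 1 of 5, beside 6.29%. These 3 neutrophil comparisons share the combination libraries, so they are not independent of each other.

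Single treatments were compared with control in the same fit. For anti-CSF-1R against control 9 were tested and 0 passed limma's threshold (0% of all genes), with 2 at an unadjusted p under 0.05 and 1, Irgm2, in limma-voom. For cisplatin against control 9 were tested and 0 passed (0.011% of all genes), with 1 at an unadjusted p under 0.05 and 0 in limma-voom. For the interaction, which asks whether the combination departs from the sum of the single effects, 8 were tested and 0 passed (0% of all genes), with 1 at an unadjusted p under 0.05 and 0 in limma-voom.

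**Figure D2:**
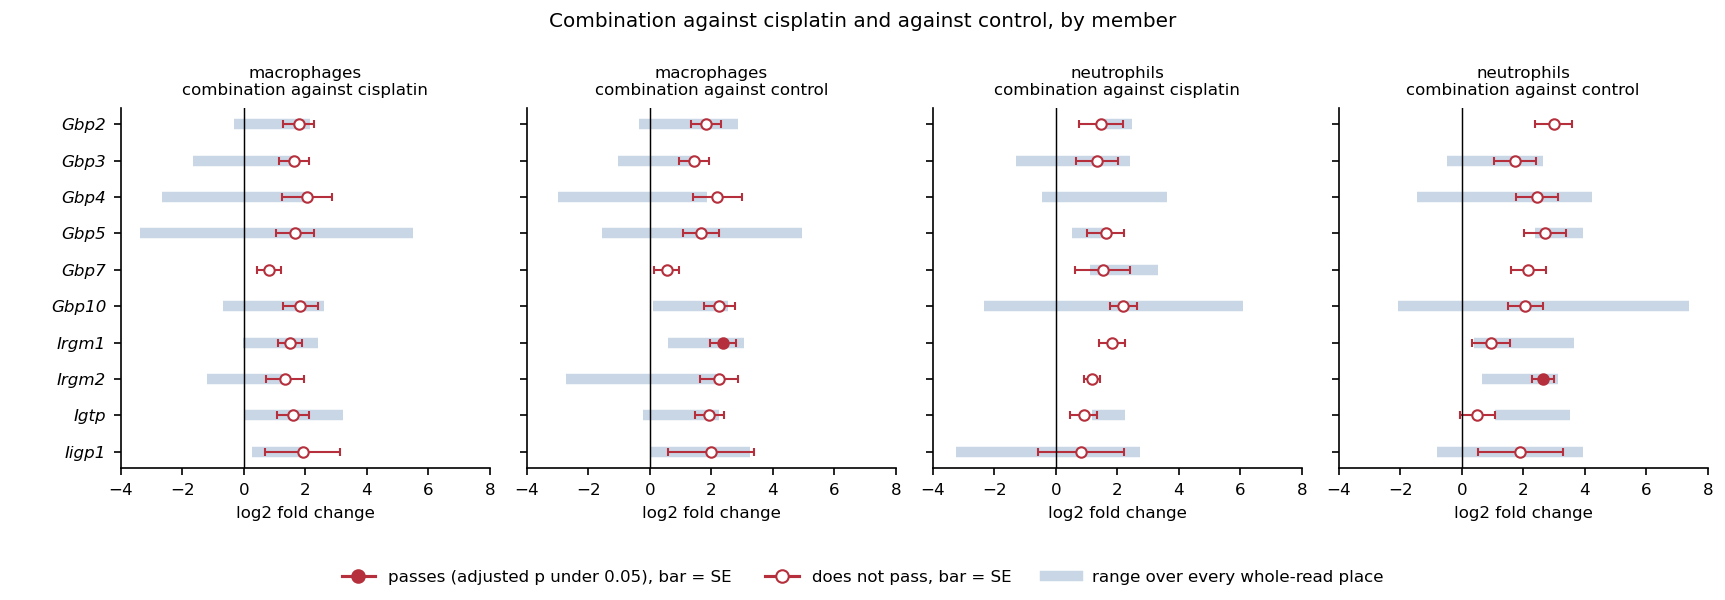
Log2 fold change of each member (horizontal axis) for the combination against cisplatin and against control in each cell type; points are limma estimates with their SE, filled where the adjusted p passes, and pale bands span the log2 difference over every possible place of all values. Only Irgm1 in macrophages and Irgm2 in neutrophils are filled, and a point can fall outside its band because undecided values are left out of the fit but kept in the band.

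In macrophages Irgm1, a regulator that keeps IRG effectors off the cell's own membranes, stood at 211 and 282 in the combination and at 69.6 and 30.3 in the 2 restored control libraries. The undecided controls were 21.9 or 219 and 13.9 or 139. Restored libraries do not overlap, but the higher place of 1 undecided control would exceed the lower combination library. With cisplatin alone Irgm1 stood at 107, 102 and 57.2, and with anti-CSF-1R the 1 restored library was at 60.3. Irgm2 stood at 33.4, 19.5, 22.7 and 61.9 in control macrophages, at 42.8, 103, 79.8 and 34.6 with cisplatin and at 151 in the 1 restored combination library.

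The regulator Igtp and the effector Iigp1 had their highest restored macrophage values in the combination. Igtp stood at 186 and 261 in the combination, above its restored controls at 45.3, 33.7 and 119 and its restored cisplatin libraries at 54.6 and 93.2. Its undecided control was 23.5 or 235, and the higher place would exceed the lower combination library. Over every possible place the Igtp log2 difference between combination and control ranged from -0.21 to 2.25. Iigp1 stood at 196 and 224 in the combination, above 45.8, 48.8, 153 and 25.9 with cisplatin. With anti-CSF-1R alone Iigp1 was at 149 in replicate 1 and had no read in replicate 2, the library with mast cell markers, so that group spans nearly the whole range of the single treatments.

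Among the GBPs in macrophages, Gbp2 stood at 174 and 434 in the combination, above 44.9, 65.4 and 154 in control and above 70.9, 104 and 67.0 with cisplatin. Gbp3 stood at 133 and 130.0 in the combination against 32.5, 30.8, 46.8 and 113 in control. Gbp10 stood at 176 and 234 against 34.3, 21.3 and 96.0. In each of the 3 genes control replicate 4 is the highest restored control and still lies under both combination libraries, whereas the highest place of the undecided Gbp2 or Gbp10 control would not. Gbp5 stood at 36.7 and 62.5 in the combination and at 10.5 to 24.6 in the 4 controls. Each of these Gbp5 values was placed by the model and has another possible place. Over every possible place the log2 difference from control ranged from -1.56 to 4.96 for Gbp5 and from -1.03 to 1.43 for Gbp3. Gbp7 was the exception, at 345 and 395 in the combination but at 178, 350.4, 182 and 359.9 in control, so its groups overlap.

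For the combination against control in macrophages all 10 members were tested, all 10 estimates were positive, and the median log2 fold change was 1.97 beside -0.0012 over all genes. Of the 10, 1 rose, Irgm1 (log2 fold change 2.38 ± 0.43 SE, adjusted p = 0.0256 in limma), beside 0.943% of all genes that rose. At an unadjusted p under 0.05 there were 8, all but Gbp7 (0.54 ± 0.40 SE) and Iigp1 (2.001 ± 1.40 SE). Gbp10 (2.26 ± 0.51 SE, adjusted p = 0.0553) lay just outside the threshold. The combination was higher at every possible place for 4 members, Gbp7, Gbp10, Irgm1 and Iigp1, and restored libraries did not overlap in 7 of 8 members with 2 or more a group, beside 14.2% of all genes.

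The Irgm1 call depended on single libraries. It was lost without control replicate 3, without combination replicate 1 and without combination replicate 2, where the adjusted p reached 0.273 in limma. Without control replicate 4, whose Irgm1 value is undecided, 6 members rose: Gbp2 (2.32), Gbp3 (1.84), Gbp10 (2.86), Irgm1 (2.38), Irgm2 (2.57) and Igtp (2.46, all log2 fold changes). With no filter on low values the adjusted p of Irgm1 was 0.0614.

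Against cisplatin in macrophages, again all 10 estimates were positive (median log2 fold change 1.65, all genes -0.0078) and 0 passed limma's adjusted threshold, beside 2.11% of all genes. The smallest adjusted p was 0.0742, for Irgm1 (1.503 ± 0.39 SE), followed by Gbp2 (1.78 ± 0.50 SE, adjusted p = 0.0845) and Gbp3 (1.64 ± 0.49 SE, adjusted p = 0.0974). At an unadjusted p under 0.05 there were 7, and limma-voom passed 1, Gbp10 (2.71). Restored libraries did not overlap in 7 of 8 members, beside 16.8% of all genes. That share of all genes is the background for a group of 2 libraries. The combination mean was higher at every possible place for 3 members, Gbp7, Igtp and Iigp1. For the other 7 the places allowed either direction. The log2 difference ranged from -0.02 to 2.41 for Irgm1, from -0.32 to 2.15 for Gbp2 and from -1.65 to 1.64 for Gbp3.

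Against anti-CSF-1R in macrophages 9 members were tested, all 9 estimates were positive (median log2 fold change 1.29, all genes -0.04) and 0 passed limma's threshold, beside 0% of all genes, with 4 at an unadjusted p under 0.05 and 0 in limma-voom. The combination was higher without overlap in 1 of 2 members that could be compared, beside 18.4% of all genes. Its mean was higher at every possible place for 3 members, Gbp2, Igtp and Iigp1, and for 7 the places allowed either direction. Without anti-CSF-1R replicate 1, Iigp1 passed here (log2 fold change 6.72), where the other arm is replicate 2 with no Iigp1 read. For anti-CSF-1R against control 0 of 9 members passed (1.8% of all genes), with 1 at an unadjusted p under 0.05, Gbp7 (-1.45 ± 0.53 SE, adjusted p = 0.154), and 0 in limma-voom. Without anti-CSF-1R replicate 1, Iigp1 passed as lower (-4.72), and without control replicate 4 Gbp10 passed as higher (1.95). For cisplatin against control 0 of 10 passed (0.0981% of all genes), with 1 at an unadjusted p under 0.05, Irgm2 (0.91 ± 0.40 SE), and 0 in limma-voom. For the interaction 0 of 9 passed (0% of all genes), with 1 at an unadjusted p under 0.05, Gbp7 (2.27 ± 0.66 SE), and 0 in limma-voom.

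The members' values were also summed up by library. A member's deviation is its log2(value + 1) less its mean over the libraries of that cell type. The mean deviation over the restored members gives 1 figure for each library. Undecided members are left out, so the figures of different libraries rest on different sets of members. In macrophages this mean was 1.13 and 1.58 in the combination libraries, against -0.74, -0.67, -0.89 and 0.55 in control. With cisplatin it was -0.71, 0.24, 0.36 and -0.80, and with anti-CSF-1R 0.61 and -1.73. The value of -1.73 rests on 5 restored members, the lowest at -4.83. Both combination libraries lie above all others, and control replicate 4 stands with the upper libraries of the other groups. That library was the highest control for 9 of the 10 members.

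In neutrophils the mean deviation was 1.06, 1.61, -0.13 and 1.43 in the combination and -1.87, -1.59, -2.66 and 0.13 in control. Those control figures rest on 4, 2, 4 and 9 restored members, and the combination figures on 9, 10, 8 and 10. With anti-CSF-1R the mean deviation was 0.33, -0.99, -1.29 and -0.09, and with cisplatin -0.06, -0.36 and -0.87. The anti-CSF-1R value of -1.29 rests on 2 restored members. Combination replicate 3 was the lowest of its group for 8 of 10 members and overlaps the single treatments, and control replicate 4 was the highest for all 5 members with at least 2 restored controls. The labels tie no macrophage library to a neutrophil library, so whether the libraries numbered 4 share a mouse is not known.

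**Figure D3:**
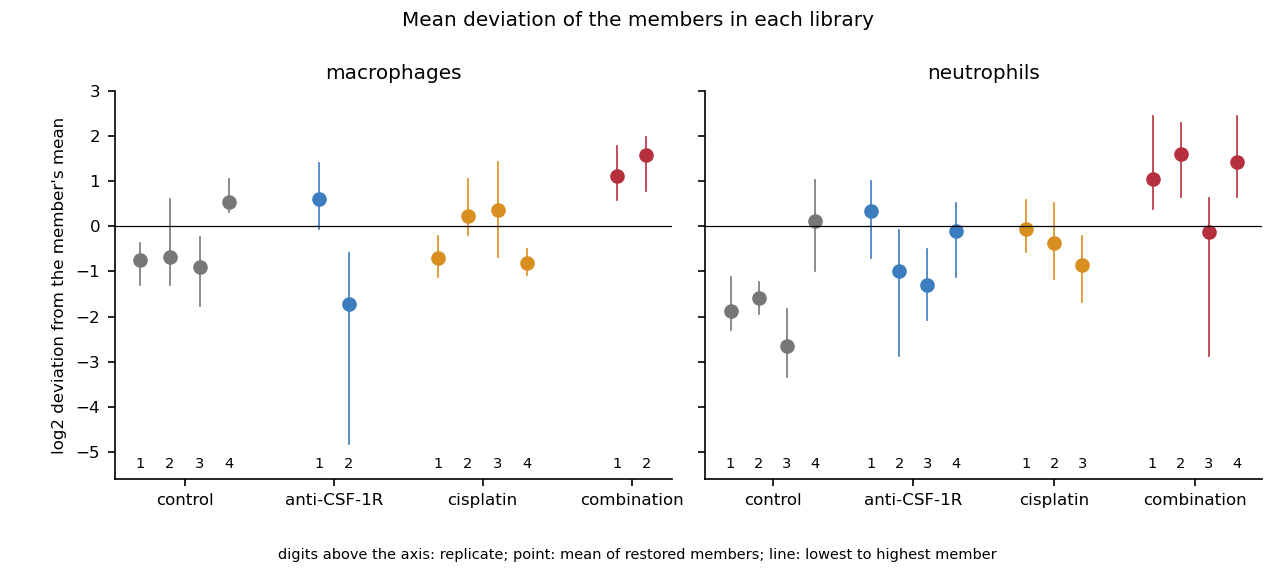
Mean log2 deviation of the restored members from their own mean (vertical axis) in each library, by treatment and cell type; lines run from the lowest to the highest member and digits give the replicate. In macrophages the combination libraries lie highest, at 1.13 and 1.58, and control replicate 4 stands above the other controls in both cell types.

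The genes whose pattern was most like the family's mean deviation were sought among those restored in every library of a cell type. In macrophages (12 libraries, 3645 genes) these were Tap1, a peptide transporter of antigen presentation (Pearson r 0.957), Samhd1, a dNTP hydrolase that restricts viruses (0.925), Dr1 (0.920), Evi2a (0.915) and Chka (0.891). In neutrophils (15 libraries, 3127 genes) they included H2-Q4, a class I molecule (0.947), Samhd1 (0.922), Gm1966 (0.906) and Trim30a (0.903). The 0.95 quantile of r over the genes compared was 0.605 in macrophages and 0.596 in neutrophils. The r values describe these libraries, and treatment group, library and scaling are common to the points.

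Between the cell types, the combination is described first because most of its values are certain, and there 5 members were lower in macrophages than in neutrophils. Gbp2 stood at 174 and 434 in macrophages and at 946 to 3577 in neutrophils, a log2 difference of -2.79 ± 0.69 (SE, adjusted p = 0.00266 in limma over all 8 groups). Igtp (-1.82 ± 0.48 SE, adjusted p = 0.00524) and Gbp7 (-1.60 ± 0.63 SE, adjusted p = 0.0427) were lower too, and no possible place changes these 3 differences. The Gbp7 call was lost in 5 of 6 fits that left out 1 library (adjusted p up to 0.174), with the most probable place and in limma-voom (adjusted p up to 0.230). The Gbp2 call (adjusted p = 0.0722) and the Igtp call (adjusted p = 0.0676) were lost without macrophage combination replicate 1, and the Igtp call also in limma-voom (adjusted p = 0.126). Neither Gbp2 nor Gbp7 nor Igtp overlaps between the cell types in the combination. Gbp5 (-3.01 ± 0.69 SE) and Irgm2 (-2.18 ± 0.54 SE) also passed as lower, while Irgm1 (-1.12 ± 0.48 SE, adjusted p = 0.0621) did not. The Gbp5 difference ranged from -3.01 to 0.28 over the places. Irgm2 was lower at every possible place, with a range of -3.88 to -2.26. The Irgm2 estimate rests on 1 restored macrophage library and lies outside that range. In all, 5 members were lower, beside 23.6% of all genes, and 1, Gbp10, was higher (1.46 ± 0.52 SE), beside 22.2%. The places leave the Gbp10 difference between -1.95 and 2.16, and its call was lost in 3 of 6 fits that left out 1 library (adjusted p up to 0.168 in limma). The median over members was -1.40 beside 0.12 over all genes. Without macrophage combination replicate 1, 1 member passed.

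Iigp1 and Gbp10 had higher values in macrophages, and of these Gbp10 passed. Iigp1 stood at 196 and 224 in combination macrophages and at 1 to 79.0 in combination neutrophils, without overlap, yet the difference of 2.86 ± 1.47 (SE) had an adjusted p of 0.115 in limma. Gbp6, the gene that shares most words with Gbp10, was likewise 137 and 156 in combination macrophages and 47.8 and 59.03 in the 2 restored combination neutrophil libraries. Words shared by both genes leave their values uncertain.

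Under cisplatin alone 4 members were lower in macrophages (Gbp2, Gbp5, Irgm2 and Igtp), beside 27.2% of all genes, and Gbp10 was higher, beside 28.7%. The Gbp10 call was lost with places restored without the groups, with the most probable place (adjusted p up to 0.0727) and in 2 of 7 fits that left out 1 library (adjusted p up to 0.125 in limma), and the places leave its difference between -2.77 and 4.80. Irgm2 had the smallest adjusted p of the members, with a log2 difference of -2.35 ± 0.37 (SE, adjusted p = 2.4e-05), and of these 5 it alone kept its direction at every possible place. Under anti-CSF-1R 4 were lower (Gbp2, Gbp5, Irgm1 and Igtp), beside 21% of all genes, but 1 passed without neutrophil replicate 1. Of the 2 macrophage libraries, Gbp2 and Igtp were restored in replicate 1 alone. Irgm1 was restored in replicate 2 alone, the library with mast cell markers. Each of these differences rests on 1 macrophage library, whose spread the fit took from the other groups. Without that library the member could not be tested. Gbp5 was restored in both, and its call was lost without macrophage replicate 2. In control 5 were lower (Gbp2, Gbp5, Irgm1, Irgm2 and Igtp), beside 24.6% of all genes. The control differences of Irgm1, Irgm2 and Igtp each rest on 1 restored neutrophil library, and without neutrophil control replicate 4 a single member passed. Only Gbp7 has a control difference that no place can change, and it was 0.02 ± 0.52 (SE).

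**Figure D4:**
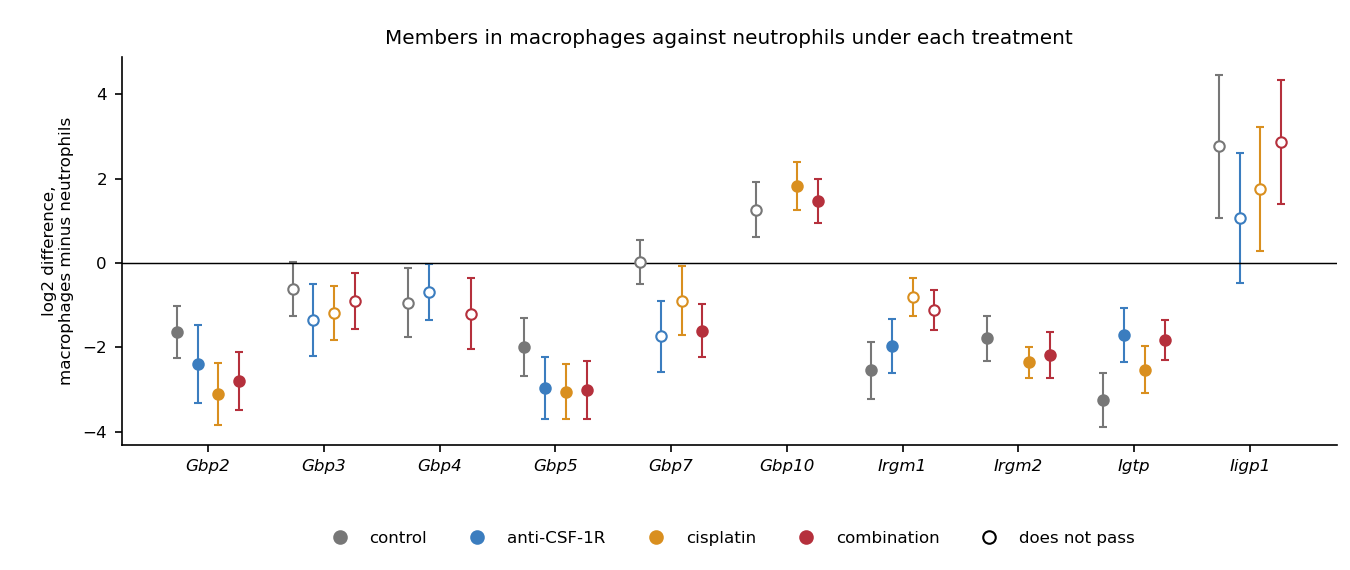
Log2 difference between macrophages and neutrophils (vertical axis, limma estimate with SE) for each member under each treatment; filled points pass the adjusted threshold and open points do not. Gbp2, Gbp3, Gbp4, Gbp5, Irgm1, Irgm2 and Igtp lie below 0 under every treatment in which they could be tested. Gbp10 and Iigp1 lie above 0 wherever tested, and Gbp7 lies above 0 in control alone.

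Whether a treatment effect differed between the cell types was tested directly. For the combination against cisplatin 9 members were tested and 0 passed limma's threshold, beside 0.0516% of all genes, with 0 at an unadjusted p under 0.05 and 0 in limma-voom. Gbp2, for example, differed by 0.31 ± 1.01 (SE), which leaves room for a difference in either direction. For anti-CSF-1R against control 8 were tested and 0 passed, beside 0.0411% of all genes, with 0 at an unadjusted p under 0.05 and 0 in limma-voom.

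The signals upstream of these genes were covered in part. Of 15 interferon and related cytokine genes in the list, 2 are in the table, and Ifng is not analysed here. Il18, which stimulates interferon gamma release by lymphocytes, stood at 56.9 and 89.5 in combination macrophages and at 10.1 and 12.5 in the 2 restored cisplatin libraries (log2 fold change 2.56 ± 0.41 SE, adjusted p = 0.0184 in limma). Of 10 receptor and JAK-STAT genes and 9 interferon regulatory factors, 0 passed in the combination comparisons of either cell type with cisplatin or control. At an unadjusted p under 0.05 there were 1 to 4 of the 10 and 3 to 5 of the 9 in those comparisons. Irf1, which acts on the ISRE, had a mean of 66.2 ± 48.9 (SD, n = 3) in control macrophages and stood at 217 and 219 in the combination (1.94 ± 0.53 SE, adjusted p = 0.0837).

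Other interferon-inducible genes give the setting. Of 12 other interferon-inducible GTPases in the table, 10 were tested in macrophages, where 1 rose in the combination against cisplatin, Gbp6 (1.496 ± 0.31 SE, adjusted p = 0.0477 in limma), and 1 against control, Gvin1 (1.81 ± 0.42 SE, adjusted p = 0.0488). In neutrophils 0 of the 12 passed in these comparisons, with 5 and 8 at an unadjusted p under 0.05. Of 18 type I interferon-induced genes, 3 rose in combination macrophages against cisplatin, led by Rsad2, the antiviral protein viperin (2.90 ± 0.29 SE, adjusted p = 0.00464), and 4 of the 17 tested against control. In combination neutrophils 2 of the 18, Rsad2 (4.09 ± 0.69 SE) and Ddx58 (2.11 ± 0.38 SE), rose against control and 0 against cisplatin, where 11 had an unadjusted p under 0.05. The median log2 fold change of those 18 genes was 1.66 in macrophages and 1.26 in neutrophils against cisplatin.

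Of 18 other interferon-gamma-induced genes tested, 1 rose in combination macrophages against cisplatin, Cd274, the ligand PD-L1 (1.75 ± 0.36 SE, adjusted p = 0.0342), and 2 against control, Cd274 and Fcgr1. Among genes that work after the GTPases, Casp4, the mouse caspase-11 that senses bacterial lipopolysaccharide once GBPs expose it, stood at 330.4 in 1 restored combination macrophage library and at 71.8 and 103 with cisplatin (1.93 ± 0.39 SE, adjusted p = 0.0373 in limma, with the spread of the 1 library taken from the other groups). It was 1 of 9 inflammasome genes tested. Of 14 tested genes of the autophagy conjugation machinery, which places the GTPases on vacuoles, Atg12 rose (1.10 ± 0.25 SE, adjusted p = 0.0398). In neutrophils 0 of either list passed against cisplatin, with 2 and 0 at an unadjusted p under 0.05.

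Neutrophil, eosinophil, and stromal and endothelial marker sums were higher in combination macrophages than with cisplatin, while monocyte sums overlapped. The same held for anti-CSF-1R alone against cisplatin. The summed monocyte markers (6 genes) were 961 and 2505 in combination macrophages against 533 to 1035 with cisplatin, and the summed neutrophil markers (11 genes) were 1357 and 1508 against 196 to 392, with 255 to 1567 in control. Of 7 neutrophil markers tested against cisplatin, 4 passed as higher. Of 13 macrophage markers tested against cisplatin, 2 passed as lower and 4 had positive estimates (median log2 fold change -0.37), and their sum was 27135 and 28630 in the combination against 25801 to 34574 with cisplatin. In combination macrophages the neutrophil markers stood at 1.03% to 5.84% of their mean in combination neutrophils, and the members at 11.97% to 395%. The stromal and endothelial sum (6 genes) was 166 and 473 against 77.7 to 89.4, the eosinophil sum (5 genes) was 34.4 and 217 against 6.66 to 9.94, and Camp was listed at 1 in both combination libraries. With anti-CSF-1R alone the macrophage sums were 997 and 1271 for monocyte markers and 1048 and 1140 for neutrophil markers. There the eosinophil sum was 67.2 and 106, and the stromal and endothelial sum was 121 and 162. The B cell sum was 10.2 and 11.8 in combination macrophages, within the 8.95 to 13.6 with cisplatin. In neutrophils the monocyte sum was 2509 to 8899 in the combination and 1342 to 2022 in control, and it overlapped the range of 1746 to 4259 with cisplatin. The dendritic cell sum (4 genes) was 77.5 to 183 in combination neutrophils, above the 20.3 to 49.9 with cisplatin. It overlapped the 46.3 to 88.7 in control. All other marker sums of the neutrophils overlapped between the combination and cisplatin. The 2 measured T and NK cell markers summed to 66.8 and 74.4 in combination macrophages, to 32.8 to 118 with cisplatin and to 151 to 239 in control. The part of these cells in the values of the members was not tested.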

How the data were processed

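RNA-seq libraries of sorted tumour macrophages (12) and neutrophils (15) were analysed, grouped by the labels. Replicate numbers are names given in accession order, since the labels hold none. Separate mice for the libraries of a group are stated nowhere, and the p-values rest on a spread between libraries that may be technical. Reads were aligned with TopHat2 2.0.11 to mm10 and processed with CASAVA 1.8, Partek 6.6, R 3.3.1 and DESeq2, per the submitters' processing notes, which give no order. The deposited values are a normalised signal, reads divided by a size factor by the authors, with 0 listed at 1. The step was not stated and was read from the values, which are whole multiples of a library's 1-read value within 0.03 reads.

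Of all values, 91.1% could have lost a decimal point and 67.1% had more than 1 place that gave whole reads. Places were restored with a negative binomial model at a probability of at least 0.95, with and without groups, and 6.71% of values were left out. The damage was not foreseen when the tests were designed. The restoring and the fit were also run on simulated data with an assumed spread, which need not match that of these libraries. That run is not used as support here. limma 3.58.1 (R 4.3.3) was run on log2(value + 1) for genes at 10 or more in at least 2 libraries, fitting the 4 groups of one cell type together, or all 8 for comparisons between cell types. Fold changes are on that log2 scale, which understates changes of low genes. Two-sided p-values were adjusted over all genes (Benjamini-Hochberg, threshold 0.05). A difference over every possible place uses means of log2(value + 1) of all libraries. Replicate libraries correlated at r 0.922 to 0.973, and none was a copy of another.

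The members and gene lists were chosen with earlier results of these data known. All members were named. From the other lists, genes that passed and the interferon regulator Irf1 could be named, and the 5 genes most like the family in each cell type were sought. One gene that these rules name is not reported here. Other pseudocounts, filters, scalings, restorings, tests and left-out libraries were tried.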

Additional observations from a re-analysis of the deposited data

Results flagged for a closer look

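Gbp2 in neutrophil control replicate 4 stood at 1032.13 normalised counts, far above the other controls at 118 to 188. The gap to the nearest of them was 0.924 of the range of the group, above Dixon's critical value for 4 libraries. Gbp7 in the same library stood at 783.122, and its gap was 0.878 of the range. In all, 18 groups with 4 restored libraries were examined and 2 were past the critical value. The ratio was taken on the counts themselves, not on the log2 scale of the tests. Chance flags about 1 in 20 where values are normally distributed, which these counts need not be. The 2 flags come from 1 library, so they are not independent of each other. Both values have only 1 possible place, and both lie in the library in which every member with at least 2 restored neutrophil controls was highest.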

How the results depend on the processing

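No paired analysis was possible because the labels number no replicates. The edgeR test planned on recovered reads was not run, because many values have more than 1 possible read count, and limma-voom on the most probable reads and places restored with the groups alone were added after seeing the data. Over 59 member differences and 853 refits, 781 kept direction and side of the threshold, 42 lost the call, 26 gained it and 4 turned. The numbers of members that passed were as follows, and the cause of each change was not tested. In macrophages the combination against control gave 2 with log2(value + 8), 0 with no filter, 2 with the groups alone, 2 with limma-voom and 3 with all 8 groups in the fit, in place of 1. Against cisplatin it gave 1 with the most probable place and 1 with limma-voom, in place of 0. In neutrophils the combination against control gave 0 with TMM scaling, 4 with the most probable place, 3 with the groups alone, 2 with limma-voom and 4 with all 8 groups, in place of 1. Against cisplatin it gave 1 with the most probable place, and against anti-CSF-1R 1 with the most probable place and 1 with limma-voom, in place of 0. Anti-CSF-1R against control gave 1 with the most probable place, 1 with the groups alone and 1 with limma-voom, and cisplatin against control 1 with the most probable place and 1 with the groups alone, in place of 0. Between cell types, control gave 3 with limma-voom and 3 with only those groups in the fit, in place of 5, anti-CSF-1R gave 7 with the most probable place, in place of 4, and the difference in the anti-CSF-1R effect gave 1 with the most probable place, in place of 0. Leaving out 1 library gave 0 to 6 for macrophage combination against control, 0 to 5 for neutrophil combination against control, and 0 to 1 for macrophage anti-CSF-1R against control, macrophage combination against anti-CSF-1R and neutrophil combination against anti-CSF-1R. Between cell types it gave 1 to 5 in control, 0 to 5 with anti-CSF-1R, 4 to 5 with cisplatin and 1 to 7 in the combination, and every other comparison stayed at 0. Irgm2 in macrophages, combination against cisplatin, turned to -0.358 with the most probable place and -0.0862 with limma-voom. Gbp4 in macrophages, combination against control, turned to -0.190 with limma-voom, and Iigp1 in neutrophils, combination against control, to -0.0379 without control replicate 3 (highest 3.85, without control replicate 4). Undecided places and groups of 2 to 4 libraries limit all comparisons.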
